A study of Mus musculus with 8 samples.

Results

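The transcription factor p53 is held at a low level by the ubiquitin ligase Mdm2, and stress such as DNA damage releases it to switch on genes that stop the cell cycle, repair DNA or kill the cell. Mdm2 is itself a p53 target, which closes a negative feedback loop, and Cdkn1a, which encodes the cyclin-dependent kinase inhibitor p21, is the best-known target that arrests cells. Embryonic stem cells have abundant p53 but a short G1 phase and a weak p21 checkpoint, and p53 activity in them is linked to loss of the undifferentiated state. A set of 10 genes, p53 (Trp53) and 9 of its targets (Mdm2, Cdkn1a, Ccng1, Perp, Zmat3, Trp53inp1, Phlda3, Btg2 and Fas), was followed in mouse embryonic stem cells that had or lacked Jmjd1a and Jmjd1b. These are histone demethylases, now named Kdm3a and Kdm3b, which act on methylated lysine 9 of histone H3.

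Members were all probe sets whose only gene symbol in the platform's gene table was 1 of the 10 names. Of the 10 genes, 9 had such a probe set, 16 probe sets in all among 45101 on the array, and Trp53 itself had none and was not analysed here. A probe set was called measured where its 8 values spanned at least 0.01 on the log2 scale. This left 11 measured probe sets of 7 genes, out of 11502 measured probe sets in the table. Phlda3 (1 probe set, 9.12 on each array) and Fas (1 probe set, 6.30) were flat, as were 1 probe set each of Mdm2, Btg2 and Trp53inp1, and no difference between groups can be read for these. The measured member nearest the limit was Mdm2 1423605_a_at with a span of 0.42, and the spans of the flat members were 0 after rounding to 2 decimals. The leading probe set of a gene is the measured one with the highest mean over the 8 arrays.

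The 8 arrays came in 4 groups of 2: WT cells (Jmjd1a+/+ and Jmjd1b+/+), Jmjd1a-KO cells (Jmjd1adelta/delta and Jmjd1b+/+), Jmjd1b-KO cells (Jmjd1a+/+ and Jmjd1bdelta/delta) and double-KO cells (delta/delta for both genes). All were grown with serum replacement, fetal calf serum and leukemia-inhibiting factor, which keeps stem cells undifferentiated. To make the double-KO cells, a Jmjd1a-deficient line was given a conditional Jmjd1b allele and the inducible recombinase MerCreMer. The protocol of all 8 samples names OHT, the drug that activates this recombinase, at 800 nM, and the labels name no control for the drug. The labels call Jmjd1b-KO and WT cells derived from mice while the design text describes targeted Jmjd1b-deficient lines, so differences between lines and effects of the deletions cannot be told apart. The labels call the replicates biological without saying whether they are separate lines or cultures, and p-values measure the spread between these arrays.

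The deleted genes checked the labels: Kdm3a was at 12.73 to 12.83 in WT and Jmjd1b-KO and at 4.60 to 5.08 on the other arrays, and Kdm3b (1428320_at) was at 9.81 to 9.96 in WT and Jmjd1a-KO and at 7.06 to 7.66 on the other arrays. The SD of the difference between replicates over the 11502 probe sets was 0.35 in Jmjd1a-KO and 0.30 in double-KO, above the 0.16 of WT and the 0.12 of Jmjd1b-KO. All 8 listed stem cell markers were measured, with a summed level (log2 of the sum of linear values) of 15.20 to 15.24 in WT, 15.67 to 15.70 in Jmjd1a-KO, 15.23 to 15.24 in Jmjd1b-KO and 15.29 to 15.82 in double-KO. Of 10 fibroblast or feeder markers 8 were measured, and their summed level was 12.98 to 13.23 in WT, 11.07 to 11.40 in Jmjd1a-KO, 9.84 to 10.02 in Jmjd1b-KO and 11.71 to 12.39 in double-KO, with Dcn and Lum flat. Against WT, 7, 6 and 5 of the 8 fell in these knockout groups and 1 rose in Jmjd1b-KO. Over all measured probe sets 7.84%, 11.5% and 19.6% were called lower there and 9.98%, 12.3% and 26.9% higher. Of 7 trophoblast markers 5 were measured, at 9.88 to 10.08 in WT, 11.26 to 11.30 in Jmjd1a-KO, 11.07 to 11.09 in Jmjd1b-KO and 12.76 to 12.77 in double-KO, with Cdx2 and Elf5 flat, and 2, 5 and 4 of the 5 rose. Of 6 neural markers all were measured, at 11.93 to 12.02, 10.66 to 11.86, 10.25 to 10.35 and 10.28 to 10.53 in the same order, and of 7 endoderm markers 3 were, at 8.15 to 8.27, 8.44 to 8.50, 7.83 to 7.88 and 8.59 to 9.00. Against WT 0, 3 and 3 neural markers fell, and 1 rose in double-KO. Among the endoderm markers 1 fell in Jmjd1b-KO and 2 rose in double-KO. The part of all these markers in the changes below was not tested. In bulk samples, a change in the share of cells of 1 type and a change in RNA per cell cannot be told apart.

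The promoters of the 3 members whose measured probe sets all fell from Jmjd1a-KO to double-KO and that had a window in the sequence table are shown first. The windows come from RefSeq (GRCm38.p6), run from 250 bases before to 50 bases after a gene's start, and cover 6 of the 9 members on the array (Perp, Zmat3 and Trp53inp1 are not in the table). The consensus p53 decamer, the unit of a p53 response element, was searched as 3 purines, C, 2 bases that are A or T, G and 3 pyrimidines. It reads the same on both strands. An exact decamer stood in 8.36% of 32851 windows. Printed are the 250 bases before the start, with exact decamers in capitals.
Cdkn1a, chr17:29090729-29090978, plus strand, before the upstream of 2 starts: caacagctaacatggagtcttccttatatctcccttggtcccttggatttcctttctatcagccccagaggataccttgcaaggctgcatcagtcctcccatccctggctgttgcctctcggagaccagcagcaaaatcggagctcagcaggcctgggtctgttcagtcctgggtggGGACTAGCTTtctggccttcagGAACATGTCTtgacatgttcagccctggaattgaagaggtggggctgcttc
Mdm2, chr10:117710759-117711008, minus strand: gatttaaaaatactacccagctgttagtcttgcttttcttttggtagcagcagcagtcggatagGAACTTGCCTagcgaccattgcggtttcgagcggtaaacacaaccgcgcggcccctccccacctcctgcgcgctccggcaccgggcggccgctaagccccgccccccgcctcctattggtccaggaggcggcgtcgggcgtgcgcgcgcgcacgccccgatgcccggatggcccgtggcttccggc
Ccng1, chr11:40755287-40755536, minus strand: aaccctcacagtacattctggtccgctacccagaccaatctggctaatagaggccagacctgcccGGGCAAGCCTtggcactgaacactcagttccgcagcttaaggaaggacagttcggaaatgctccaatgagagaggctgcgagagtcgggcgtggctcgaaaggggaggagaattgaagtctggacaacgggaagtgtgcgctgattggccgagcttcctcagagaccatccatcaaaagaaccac
The upstream Cdkn1a window held 2 exact decamers, GGACTAGCTT at 73 and GAACATGTCT at 51 bases before the start. The second was followed, with a spacer of 0 bases, by TGACATGTTC, which departs from the consensus at 1 position. The exact decamers themselves lie 12 bases apart. The Ccng1 window held GGGCAAGCCT at 185 bases before the start, preceded with a spacer of 0 bases by a decamer with 1 departure. The Mdm2 window held GAACTTGCCT at 186 bases before the start with no such partner. Such pairs, with at most 13 bases between them and at most 1 departure outside the C and G of the partner, stood in 0.627% of all windows. The second Cdkn1a window, at the downstream start, and those of Btg2, Phlda3 and Fas held no exact decamer. These matches describe letters in short windows, and the p53-responsive promoter of Mdm2 lies in its first intron.

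Mdm2, the negative regulator of p53, rose after single loss on 1 of its 2 measured probe sets and fell after double loss on both. On probe set 1427718_a_at it read 8.61 and 8.61 in WT, 8.97 and 8.89 in Jmjd1a-KO, 8.92 and 8.93 in Jmjd1b-KO and 8.34 and 8.40 in double-KO. The single knockouts thus lay above WT and the double knockout below it, with no overlap between WT and any other group. It rose by 0.32 ± 0.06 in Jmjd1a-KO (log2 change ± SE by limma, adjusted p = 0.0195) and by 0.32 ± 0.06 in Jmjd1b-KO (adjusted p = 0.0171), and fell by 0.24 ± 0.06 in double-KO against WT (adjusted p = 0.0163). The leading probe set 1423605_a_at read 9.39 and 9.41 in WT, 9.50 and 9.50 in Jmjd1a-KO, 9.56 and 9.56 in Jmjd1b-KO and 9.13 and 9.18 in double-KO. The single knockouts again lay above WT and double-KO below it, but the single losses did not pass the threshold (0.11 with a 95% interval of -0.02 to 0.23, adjusted p = 0.179, and 0.16 with 0.04 to 0.28, adjusted p = 0.063). The mean of the gene's measured probe sets did pass in both (0.21, adjusted p = 0.0399, and 0.24, adjusted p = 0.0249), and in Jmjd1b-KO the leading probe set passed with array weights (0.0136) and with only the compared groups in the fit (0.0457). Against Jmjd1a-KO, both Mdm2 probe sets fell in double-KO, by 0.34 ± 0.05 (adjusted p = 0.00652) and 0.56 ± 0.06 (adjusted p = 0.00266). With only the compared groups in the fit these falls did not pass (adjusted p = 0.079 and 0.0508), nor did the rise of 1427718_a_at in Jmjd1a-KO (0.0907). The falls in double-KO against WT and the rise of that probe set in Jmjd1b-KO did pass. When each array was left out in turn, both falls from Jmjd1a-KO kept their call. The calls against WT were less stable: on 1427718_a_at the rise in Jmjd1a-KO had an adjusted p of 0.0557 to 0.108 without either WT array, Jmjd1a-KO replicate 1 or either Jmjd1b-KO array, the rise in Jmjd1b-KO 0.0803 to 0.109 without either array of WT or Jmjd1b-KO, and the fall in double-KO 0.0687 to 0.0781 without either WT array or double-KO replicate 1. On 1423605_a_at the fall in double-KO had an adjusted p of 0.0538 and 0.0642 without WT replicates 1 and 2.

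Cdkn1a, the inhibitor of cyclin-dependent kinases, was lowest in double-KO and had the widest range of group means among the leading probe sets (1.38). Its leading probe set 1424638_at read 9.52 and 9.45 in WT, 9.46 and 9.04 in Jmjd1a-KO, 9.64 and 9.87 in Jmjd1b-KO and 8.34 and 8.41 in double-KO. Every double-KO array lay below every other array, while Jmjd1a-KO overlapped WT. It fell by 1.11 ± 0.15 against WT (2.16-fold, adjusted p = 0.00258), by 0.88 ± 0.15 against Jmjd1a-KO (adjusted p = 0.0108) and by 1.38 ± 0.15 against Jmjd1b-KO (adjusted p = 0.00113). The single losses gave -0.24 in Jmjd1a-KO (95% interval -0.60 to 0.13) and 0.27 in Jmjd1b-KO (-0.10 to 0.64), neither past the threshold (adjusted p = 0.298 and 0.229). The second probe set, 1421679_a_at, read 9.51 and 9.35, 9.39 and 9.01, 9.67 and 9.86, and 8.47 and 8.30 in the same order. It repeated the falls in double-KO (-1.04, -0.82 and -1.37), and on it Cdkn1a was higher in Jmjd1b-KO than in Jmjd1a-KO by 0.56 ± 0.15 (adjusted p = 0.0395), a call that held only without Jmjd1a-KO replicate 1 (adjusted p of 0.0526 to 0.197 without each other array). On the leading probe set that difference was 0.51 (adjusted p = 0.0529). With only the compared groups in the fit, the fall against Jmjd1a-KO did not pass on either probe set (adjusted p = 0.0712 and 0.0745). The falls against WT and Jmjd1b-KO kept their call without each array. That against Jmjd1a-KO had an adjusted p of 0.0524 without double-KO replicate 1 on the leading probe set and of 0.0518 without double-KO replicate 2 on the second.

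The gene most like Cdkn1a over the 8 arrays was Kbtbd11 (mean log2 values of 7.54, 7.34, 7.77 and 6.45, in the order WT, Jmjd1a-KO, Jmjd1b-KO, double-KO), with a root mean square difference of 0.065 after each gene's own mean was removed. Nars, an aminoacyl-tRNA synthetase (0.095), and Vldlr, a lipoprotein receptor (0.101), came next among 10403 probe sets compared. The other members were less like it, with differences between 0.401 for Mdm2 and 0.91 for Perp.

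Ccng1, which encodes cyclin G1, a p53 target that acts on Mdm2 through a phosphatase, was raised in Jmjd1a-KO. Its leading probe set 1420827_a_at read 10.87 and 10.79 in WT, 11.57 and 11.55 in Jmjd1a-KO, 10.58 and 10.73 in Jmjd1b-KO and 10.67 and 10.64 in double-KO. Both Jmjd1a-KO arrays lay above all others. It rose by 0.73 ± 0.07 in Jmjd1a-KO against WT (adjusted p = 0.00557) and fell by 0.91 ± 0.07 in double-KO against Jmjd1a-KO (adjusted p = 0.00119), and both calls held without each array. Against WT the leading probe set gave -0.17 in Jmjd1b-KO (adjusted p = 0.117) and -0.18 in double-KO (95% interval -0.35 to -0.01, adjusted p = 0.0829). The other probe sets, 1450016_at and 1450017_at, also rose in Jmjd1a-KO (by 0.66 and 0.39) and fell from there to double-KO (-0.61 and -0.69). With only the compared groups in the fit 1450016_at did not pass for this fall (adjusted p = 0.069 by limma). Both probe sets then did not pass for the rise (0.0656 and 0.0841). They disagreed on double-KO against WT, which was 0.05 on 1450016_at (adjusted p = 0.777) and fell by 0.29 ± 0.07 on 1450017_at (adjusted p = 0.0199, and 0.0613, 0.104 and 0.085 without WT replicate 1, WT replicate 2 and double-KO replicate 2). Their rises in Jmjd1a-KO were lost without either WT array (adjusted p of 0.0656 to 0.108), on 1450016_at also without Jmjd1a-KO replicate 1 (0.0668) and on 1450017_at without either Jmjd1b-KO array (0.0507), and the fall of 1450016_at from Jmjd1a-KO was lost without double-KO replicate 1 (0.0667).

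Btg2, an antiproliferative gene, read 9.07 and 9.00 in WT, 8.89 and 9.22 in Jmjd1a-KO, 8.59 and 8.67 in Jmjd1b-KO and 9.01 and 8.73 in double-KO. Only Jmjd1b-KO lay apart from the other groups, below them, and Btg2 did not pass the threshold in any of the 6 comparisons of groups. The change was -0.41 in Jmjd1b-KO against WT (95% interval -0.75 to -0.07, adjusted p = 0.0798), with an adjusted p of 0.0389 without either Jmjd1a-KO array. It was 0.02 in Jmjd1a-KO (-0.32 to 0.36) and -0.17 in double-KO (-0.51 to 0.17).

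**Figure D1:**
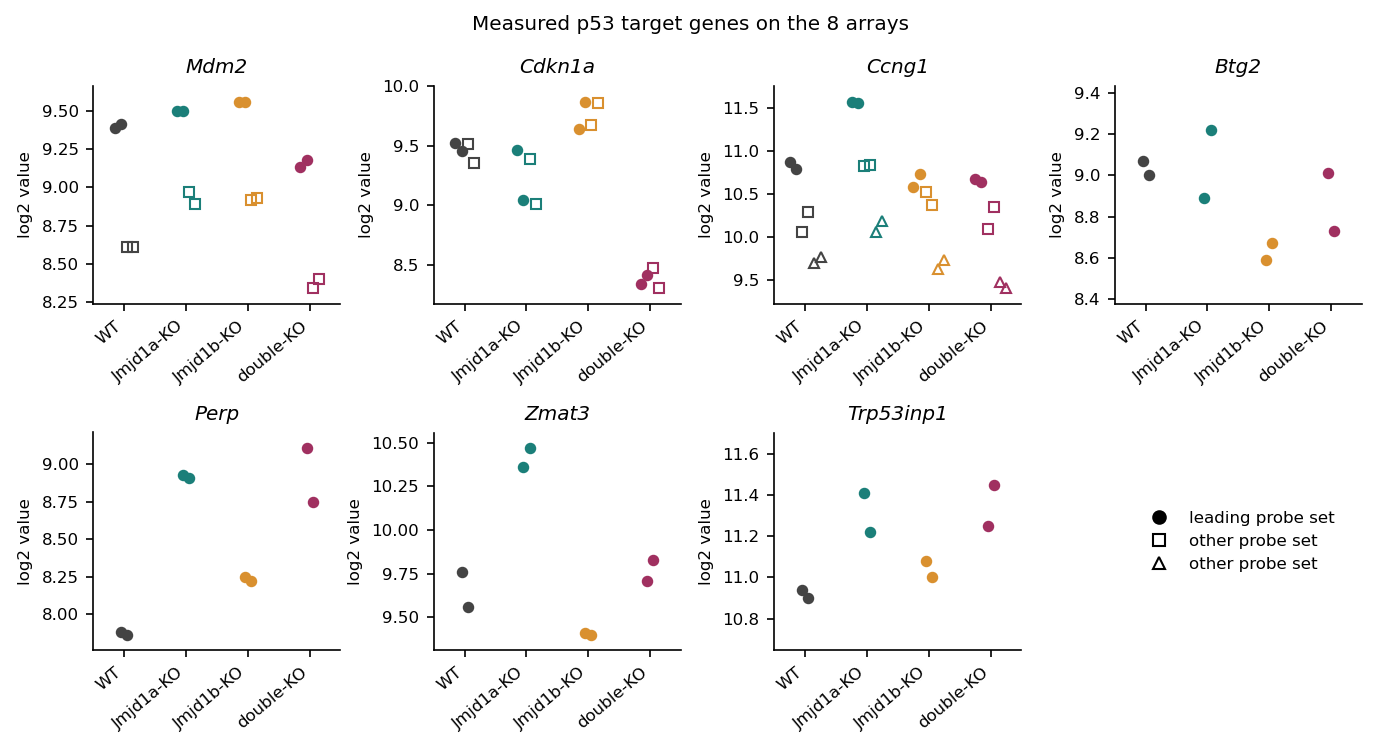
Log2 values of the 11 measured probe sets of 7 p53 target genes on the 8 arrays, 2 points per group, with filled circles for the leading probe set and open symbols for others; each panel has its own axis, which does not start at 0. Cdkn1a and Mdm2 are lowest in double-KO, Ccng1 and Zmat3 are highest in Jmjd1a-KO, and Perp and Trp53inp1 are high in both groups without Jmjd1a.

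Zmat3, an RNA-binding zinc finger protein, followed a course like that of Ccng1, the pair with the smallest root mean square difference among the 7 leading probe sets (0.155). It read 9.76 and 9.56 in WT, 10.36 and 10.47 in Jmjd1a-KO, 9.41 and 9.40 in Jmjd1b-KO and 9.71 and 9.83 in double-KO. Jmjd1a-KO lay above all other arrays, Jmjd1b-KO lay below them, and double-KO overlapped WT. It rose by 0.75 ± 0.09 in Jmjd1a-KO (1.69-fold, adjusted p = 0.00786), a call lost without WT replicate 2 (log2 change of 0.65). It fell by 0.65 ± 0.09 from there to double-KO (adjusted p = 0.00574). With only the compared groups in the fit, Zmat3 did not pass in either comparison (adjusted p = 0.0543 and 0.0501). It was higher in double-KO than in Jmjd1b-KO by 0.37 ± 0.09 (adjusted p = 0.0166, and 0.0735 to 0.0833 without either Jmjd1b-KO array or double-KO replicate 2), and against WT it gave -0.26 in Jmjd1b-KO (adjusted p = 0.0798) and 0.11 in double-KO (-0.11 to 0.32).

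Among the members tied to cell death, Perp and Trp53inp1 were raised in both groups without Jmjd1a. Perp encodes a membrane protein that p53 induces during apoptosis and that is also part of desmosomes in epithelia. It read 7.88 and 7.86 in WT, 8.93 and 8.91 in Jmjd1a-KO, 8.25 and 8.22 in Jmjd1b-KO and 9.11 and 8.75 in double-KO. WT was lowest, Jmjd1b-KO lay between, and the groups without Jmjd1a overlapped at the top. Perp rose by 1.05 ± 0.11 in Jmjd1a-KO (2.06-fold, adjusted p = 0.00702, and 0.0592 without WT replicate 2) and by 1.05 ± 0.11 in double-KO (adjusted p = 0.00135), and gave 0.36 in Jmjd1b-KO (0.08 to 0.64, adjusted p = 0.0696, and 0.0141 without either double-KO array). Perp was higher in double-KO than in Jmjd1b-KO by 0.69 ± 0.11 (adjusted p = 0.00471). Between double-KO and Jmjd1a-KO the difference was 0.01, with an interval of -0.27 to 0.29. Of the 5 measured trophoblast markers, Tfap2c and Eomes also rose in Jmjd1a-KO, by 2.48 and 0.83 (adjusted p = 0.00125 and 0.0174). The other 3 did not pass there, among them the keratins Krt8 and Krt18 (0.04 and -0.22, adjusted p = 0.944 and 0.207). Krt8 and Krt18 rose in Jmjd1b-KO (1.19 and 0.97) and double-KO (2.40 and 1.72). Any link of these markers to Perp was not tested. In Jmjd1b-KO the call of Krt8 was lost when any single WT or Jmjd1b-KO array was left out (adjusted p of 0.0877 to 0.17) and that of Krt18 without WT replicate 1 or Jmjd1b-KO replicate 2 (0.0534 and 0.0558).

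Trp53inp1, a stress-induced regulator of p53 and autophagy, read 10.94 and 10.90 in WT, 11.41 and 11.22 in Jmjd1a-KO, 11.08 and 11.00 in Jmjd1b-KO and 11.25 and 11.45 in double-KO. WT was lowest and the groups without Jmjd1a overlapped each other above Jmjd1b-KO. It rose by 0.39 ± 0.10 in Jmjd1a-KO (adjusted p = 0.0437) and by 0.42 ± 0.10 in double-KO (adjusted p = 0.0156) against WT, and was higher in double-KO than in Jmjd1b-KO by 0.30 ± 0.10 (adjusted p = 0.043). None of these calls held without each array. That in Jmjd1a-KO had an adjusted p of 0.0881 to 0.189 without either array of WT or Jmjd1b-KO or without Jmjd1a-KO replicate 1, and 0.0659 with centred arrays. That in double-KO had 0.0644, 0.0796 and 0.0654 without WT replicates 1 and 2 and double-KO replicate 2, and that against Jmjd1b-KO had 0.075 to 0.186 without either array of WT or Jmjd1b-KO or without double-KO replicate 2. The replicate block also ended the calls in Jmjd1a-KO against WT (adjusted p = 0.0703) and in double-KO against Jmjd1b-KO (0.068).

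Counted over the members, 7 of 11 probe sets (4 of 7 genes by the leading probe set) were higher and 0 lower in Jmjd1a-KO against WT, where 17.8% of all measured probe sets were called, 9.98% higher and 7.84% lower. With only these groups in the fit the count was 2, where 3.43% of all were called, and with flat probe sets included it was 1, where 1.72% were. Leaving out WT replicate 1 gave 3 (2.50% of all) and WT replicate 2 gave 1 (1.62%), and 4 were called without Jmjd1a-KO replicate 1 (9.11%) or either Jmjd1b-KO array (7.45%). By the leading probe sets the median change was 0.39, against 0.00 over all measured probe sets. In Jmjd1b-KO against WT, 1 probe set (Mdm2 1427718_a_at) was higher, where 23.9% of all were called, 12.3% higher and 11.5% lower, although 6 of the 11 had an unadjusted p under 0.05 by limma. That count was 0 when any single WT or Jmjd1b-KO array was left out, where 0.904% to 5.62% of all were called, and 2 when any single Jmjd1a-KO or double-KO array was, where 24.9% to 33.1% were. A fit restricted to both groups called 5 (44.1% of all), adding Mdm2 1423605_a_at, Cdkn1a 1421679_a_at and Perp as higher and Btg2 as lower, and array weights called 6 (48.0%), adding Zmat3 as lower to these. With flat probe sets included 2 were called (1.82%). In double-KO against WT, 2 probe sets were higher (Perp and Trp53inp1) and 5 lower (both of Mdm2, both of Cdkn1a and 1 of Ccng1), 63.6% of the members where 46.5% of all were called, 26.9% higher and 19.6% lower. The count of 7 was 3 without either WT array, where 28.1% and 28.5% of all were called. The members thus had no common direction after loss of both enzymes.

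From Jmjd1a-KO to double-KO, the step that adds Jmjd1b deletion to Jmjd1a-deficient cells, the members that passed all moved down. There 8 of 11 probe sets fell (both of Mdm2, both of Cdkn1a, all 3 of Ccng1, and Zmat3) and 0 rose, where 28.9% of all measured probe sets were called, 17.0% higher and 11.9% lower. The median change of the leading probe sets was -0.34, against 0.02 over all. With only these 2 groups in the fit 2 probe sets passed (4.83% of all), and with flat probe sets included 4 (2.86%). Against Jmjd1b-KO, 3 probe sets were higher in double-KO (Perp, Zmat3 and Trp53inp1) and 5 lower, where 50.1% of all were called, 28.3% higher and 21.8% lower. That count of 8 was 5 without either Jmjd1b-KO array or double-KO replicate 2, where 29.2% to 42.2% of all were called. In Jmjd1b-KO against Jmjd1a-KO, 1 probe set was higher (Cdkn1a 1421679_a_at) and 4 were lower (Ccng1 1420827_a_at and 1450017_at, Perp and Zmat3), where 27.8% of all were called, 12.7% higher and 15.1% lower, with counts of 2 (10.3% of all) and 3 (7.94%) without Jmjd1b-KO replicates 1 and 2. These comparisons share arrays and are not independent of each other.

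**Figure D2:**
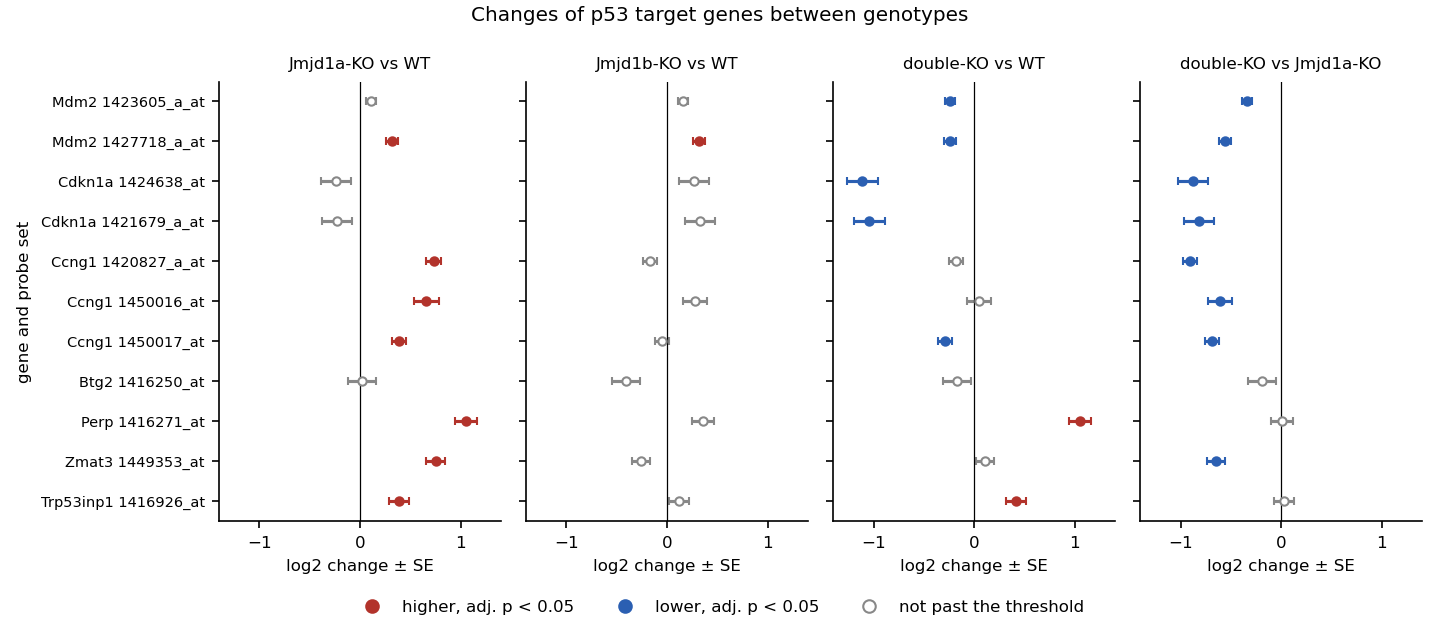
Log2 change (x axis, ± SE by limma) of the 11 measured probe sets (y axis) in 4 comparisons of groups, red for higher, blue for lower and open grey for not past an adjusted p of 0.05. From Jmjd1a-KO to double-KO 8 probe sets are lower, while in Jmjd1a-KO against WT 7 are higher.

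Whether Jmjd1b loss acted differently with and without Jmjd1a was read from the interaction, the double-KO minus Jmjd1a-KO change less the Jmjd1b-KO minus WT change. It was negative for 7 of 11 probe sets, where 24.9% of all were called, 13.9% positive and 11.1% negative, and the 7 were all those of Mdm2, Cdkn1a and Ccng1. For Cdkn1a the single changes summed to 0.03 on the leading probe set while the double loss gave -1.11, an interaction of -1.14 ± 0.21 (adjusted p = 0.0159). For Mdm2 the sums were 0.27 and 0.64 against -0.24 on both probe sets, interactions of -0.51 ± 0.07 (adjusted p = 0.00782) and -0.88 ± 0.08 (adjusted p = 0.00351). For Ccng1 the leading probe set had a sum of 0.55 against -0.18, an interaction of -0.73 ± 0.10 (adjusted p = 0.00738). Those of Mdm2 and of this Ccng1 probe set kept their call without each array. Those of Cdkn1a had an adjusted p of 0.0502 to 0.066 without WT replicate 1 or 2, Jmjd1b-KO replicate 2 or double-KO replicate 1 on at least 1 of its probe sets, and those of the other Ccng1 probe sets 0.0543 to 0.0705 without WT replicate 1 or either Jmjd1b-KO array on at least 1 of them. The count was 3 without Jmjd1b-KO replicate 2, where 7.96% of all were called. The interaction did not pass for Perp (-0.35, 95% interval -0.75 to 0.05, adjusted p = 0.16, and 0.0207 without double-KO replicate 1), Zmat3 (-0.38, -0.69 to -0.08, adjusted p = 0.0707), Trp53inp1 (-0.09, -0.43 to 0.25) or Btg2 (0.22, -0.26 to 0.70).

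**Figure D3:**
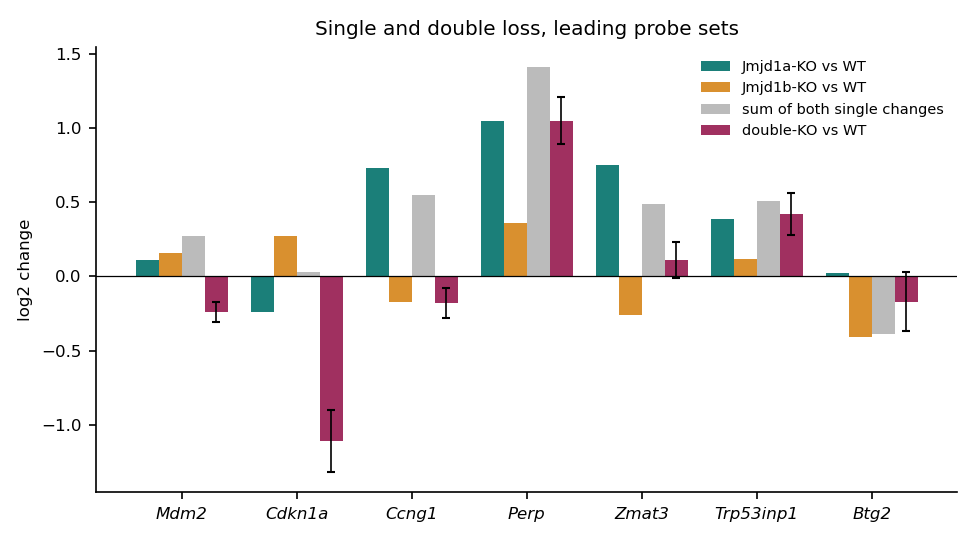
Log2 change against WT (y axis) of the 7 leading probe sets in each single knockout, the sum of both single changes (grey) and the change in double-KO; the black bar is ± 1 SE of the gap between the last 2, the interaction. For Cdkn1a the grey bar is at 0.03 and the double-KO bar at -1.11.

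Other genes of the pathway were read from lists by their leading probe sets. Of 39 other direct p53 targets 37 were on the array and 25 were measured, among which 7 were higher and 1 lower in Jmjd1a-KO, 3 higher and 0 lower in Jmjd1b-KO, and 11 higher and 4 lower in double-KO against WT. Over all measured probe sets 17.8%, 23.9% and 46.5% were called in these comparisons, and 9.98%, 12.3% and 26.9% were called higher. The count in Jmjd1b-KO was thus below the general share and near the share called higher. The medians of the 25 genes were 0.14, 0.10 and 0.20, against 0.00, 0.00 and 0.02 over all. Pmaip1, which encodes the apoptosis protein Noxa, read 10.06 and 9.92 in WT, 11.03 and 11.04 in Jmjd1a-KO, 9.93 and 9.72 in Jmjd1b-KO and 11.28 and 11.72 in double-KO. Like Perp, it was high in both groups without Jmjd1a, rising by 1.04 ± 0.15 in Jmjd1a-KO (adjusted p = 0.0131, and 0.0656 and 0.0888 without WT replicates 1 and 2) and by 1.51 ± 0.15 in double-KO (adjusted p = 0.0011). Dcxr, a carbonyl reductase, rose by 1.11 in Jmjd1a-KO (adjusted p = 0.0124, and 0.0725 and 0.0691 without WT replicates 1 and 2) and by 1.82 in double-KO (adjusted p = 0.00071). Gadd45a, a growth arrest gene, rose in each knockout group, by 1.16 in Jmjd1a-KO, by 1.59 in Jmjd1b-KO and by 1.36 in double-KO, of which the last kept its call without each array. The first was lost without either array of WT or Jmjd1b-KO or Jmjd1a-KO replicate 2 (adjusted p of 0.0637 to 0.156), the second without either array of WT or Jmjd1b-KO (0.0707 to 0.0884). Ephx1, an epoxide hydrolase, rose by 1.11 ± 0.08 in Jmjd1b-KO (adjusted p = 0.00321) and was higher there than in Jmjd1a-KO by 0.96 (adjusted p = 0.00183). Pqlc3, now named Slc66a3, rose by 1.29 in double-KO (adjusted p = 0.000906).

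From Jmjd1a-KO to double-KO, 5 of these 25 genes rose and 1 fell, a share below the 28.9% called over all measured probe sets, with a median of 0.14. By leading probe sets, 4 of the 7 members fell there and 0 rose. Pml, the scaffold of nuclear bodies, rose by 0.94, Pqlc3 by 0.77, Dcxr by 0.71 and Abhd4, a lipase, by 0.61. With only the compared groups in the fit none of these named rises passed (adjusted p of 0.0621 to 0.113 by limma), where 4.83% of all were called. The call of Dcxr was lost without Jmjd1a-KO replicate 2, either Jmjd1b-KO array or double-KO replicate 2 (adjusted p of 0.052 to 0.0655). Against Jmjd1b-KO 7 were higher and 7 lower, where 50.1% of all were called, Pmaip1 (1.68) and Dcxr (1.65) among the first and the phosphatase Ptp4a3 (-1.59) among the second. The interaction was past the threshold for 5 of the 25, below the share of 24.9% over all. It was negative for Gadd45a (-1.39), Ptp4a3 (-1.08) and Ephx1 (-0.97) and positive for Pml (0.84) and Abhd4 (0.76). The alternative fits were not read for the interaction of Abhd4. Those of Gadd45a, Ptp4a3 and Pml were lost when any single WT or Jmjd1b-KO array was left out (adjusted p of 0.092 to 0.149), Gadd45a and Ptp4a3 also without Jmjd1a-KO replicate 2 or double-KO replicate 1 (0.0646 to 0.0809) and Pml without double-KO replicate 2 (0.0695).

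Of 20 symbols of p53 regulators 16 were measured, with 1 higher and 2 lower in each single knockout and 4 higher and 3 lower in double-KO against WT. These counts lie near or below the shares over all measured probe sets (17.8%, 23.9% and 46.5%). The largest of these changes was that of Cdkn2a, the locus of the p16 inhibitor and of Arf, which blocks Mdm2. It read 6.78 and 7.04 in WT, 7.55 and 7.63 in Jmjd1a-KO, 7.87 and 7.68 in Jmjd1b-KO and 9.27 and 9.38 in double-KO. Each knockout lay above WT, and double-KO lay above all. Cdkn2a rose by 2.41 ± 0.11 in double-KO (5.33-fold, adjusted p = 0.000167), and by 0.68 and 0.86 in Jmjd1a-KO and Jmjd1b-KO (adjusted p = 0.0167 and 0.00846). Without WT replicate 1 or 2 the adjusted p in Jmjd1a-KO was 0.0756 and 0.0534, and that in Jmjd1b-KO was 0.0532 to 0.062 without WT replicate 1 or either Jmjd1b-KO array. Its interaction was 0.87 ± 0.16 (adjusted p = 0.0154, and 0.0617 without Jmjd1b-KO replicate 2), and p16 and Arf share the probe set's gene symbol and were not told apart. Usp10, a deubiquitinase of p53, rose by 0.77 in double-KO (adjusted p = 0.00353), while Cop1, a ubiquitin ligase for p53, fell by 0.60 (adjusted p = 0.00103). Crebbp, another listed regulator, also fell there, by 0.50 (adjusted p = 0.0097 by limma). That call was lost without WT replicate 1 (log2 change of -0.40). The family members Trp63 and Trp73 were flat.

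Of 5 other inhibitors of cyclin-dependent kinases 3 were measured. Cdkn1b, which encodes p27, read 8.46 and 8.28 in WT, 8.63 and 8.57 in Jmjd1a-KO, 7.92 and 7.82 in Jmjd1b-KO and 9.21 and 9.29 in double-KO. Its groups stood in the reverse order of those of Cdkn1a, and it rose by 0.88 ± 0.08 in double-KO (adjusted p = 0.000852) and fell by 0.51 ± 0.08 in Jmjd1b-KO (adjusted p = 0.0135, and 0.0714 to 0.0956 without WT replicate 1 or either Jmjd1b-KO array). Cdkn2b, which encodes p15, rose by 0.60 in double-KO (adjusted p = 0.00105). The imprinted Cdkn1c, which encodes p57, fell in each knockout group: it fell by 3.67 in Jmjd1a-KO, while in Jmjd1b-KO it gave -2.81 (adjusted p = 0.051 without Jmjd1b-KO replicate 2) and in double-KO -3.95. Of 12 mitotic genes that p21 is known to keep down, 8 were measured. None passed the threshold in Jmjd1a-KO or Jmjd1b-KO against WT, where 1 and 2 had an unadjusted p under 0.05 by limma, and 3 were higher in double-KO: Cdk1 (0.57, adjusted p = 0.00392), Cdc25c (0.28, adjusted p = 0.0326) and Plk1 (0.18, adjusted p = 0.0361). Over all measured probe sets 17.8% and 23.9% were called in the single knockouts, so an absence of calls among 8 genes says little. In double-KO 46.5% of all were called, 26.9% higher and 19.6% lower. The 3 of 8 thus lay below the share in either direction and above the share called higher. Cdk1 kept its call without each array. Cdc25c had an adjusted p of 0.0544 to 0.133 when any single array of WT, Jmjd1b-KO or double-KO was left out, and Plk1 one of 0.0721 to 0.143. Both also lost their call with quantile-normalized arrays (0.0555 and 0.0568) and with the replicate block (0.0528 and 0.0621). With centred arrays Cdc25c gave 0.18 (0.0825) and Plk1 0.08 (0.332).

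**Figure D4:**
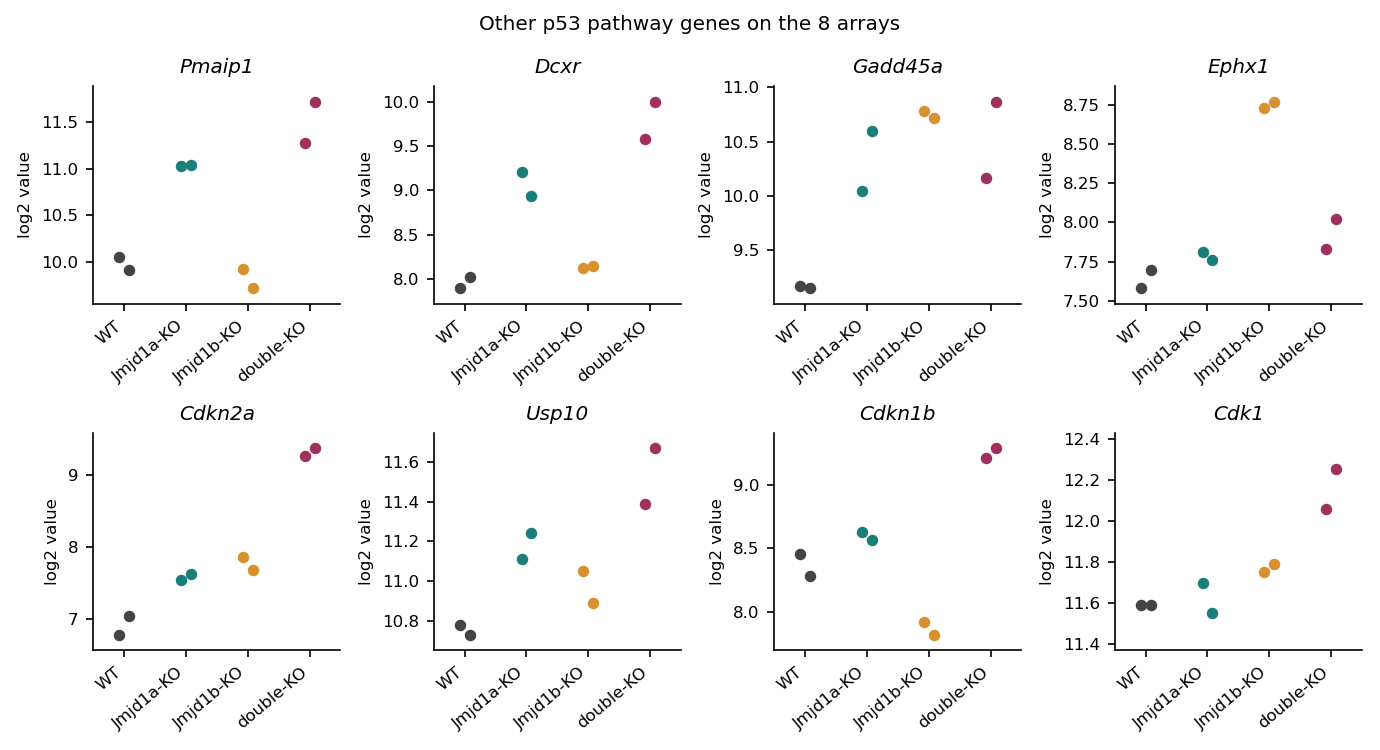
Log2 values of 8 other genes of the p53 pathway on the 8 arrays, 2 points per group; each panel has its own axis, which does not start at 0. Pmaip1 and Dcxr are high in both groups without Jmjd1a, Ephx1 is highest in Jmjd1b-KO, and Cdkn2a and Cdkn1b are highest in double-KO.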

How the data were processed

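RNA of 8 samples was measured on 1 array each. The authors deposited a table of log2 values per probe set and array; per the submitters' processing notes it was made with R 2.7.2, while the steps from probe signals to these values are not stated there. That the scale is log2 was read from the values. Of 45101 probe sets, 33599 (74.5%) spanned less than 0.01 over the 8 arrays; 34958 had 1 gene symbol, 932 several and 9211 none. The number of arrays limits the precision.

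A linear model of 4 group means was fitted to the 11502 measured probe sets with lmFit and eBayes of limma 3.58.1 under R 4.3.3 (4 residual and 1.89 prior degrees of freedom, an error shared by all groups), with Benjamini-Hochberg adjustment over all of them and a threshold of 0.05. Flat probe sets stayed out because they took the prior to 0.12 degrees of freedom. Replicates of different groups are numbered alike, but their deviations correlated between -0.04 and 0.24, so arrays were not paired. The fit was run on simulated data that gave each probe set the same error SD in all groups. Such data cannot test the shared error, and the spread between replicates differed between groups as given above. All members were named. Of each other list, a rule picked up to 4 genes with the largest change past the threshold per comparison, and not all of these are given here. Further examples, such as further interactions, were chosen after their values were seen. Members and lists were chosen with earlier results of these data known. Alternatives were all probe sets in the fit, a span of 0.1, a mean of 7, 1 value per gene, quantile normalization, centred arrays, a trended robust prior, array weights, a replicate block, a fit restricted to the groups compared, an adjusted p under 0.01 and omission of each array. Figures were drawn with matplotlib 3.10.9.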

Additional observations from a re-analysis of the deposited data

Results flagged for a closer look

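The change on Jmjd1b loss differed between Jmjd1a-deficient and Jmjd1a wild-type cells for 3 members, by the interaction term in limma with an adjusted p under 0.05. On the log2 scale the change was more negative in Jmjd1a-deficient cells by -0.51 and -0.88 on the probe sets of Mdm2, by -1.14 and -1.15 on those of Cdkn1a and by -0.73, -0.89 and -0.64 on those of Ccng1. Groups of 2 arrays were too small for a check of single arrays that stand apart.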

How the results depend on the processing

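Of 43 calls of member probe sets in 7 comparisons, 19 held without each array in turn, 18 under each other alternative at the same threshold and 15 under both. No called change of a member or of another gene picked by rule turned its sign in any alternative run. Counts of member probe sets past the threshold, of 11, are given in the order Jmjd1a-KO, Jmjd1b-KO and double-KO against WT, double-KO against Jmjd1a-KO and against Jmjd1b-KO, Jmjd1b-KO against Jmjd1a-KO, and interaction. They were 7, 1, 7, 8, 8, 5 and 7. With all probe sets in the fit they were 1, 2, 5, 4, 4, 2 and 3, and with an adjusted p under 0.01 they were 3, 0, 3, 5, 5, 3 and 3. The shares called over all features fell too, to 1.72%, 1.82%, 7.16%, 2.86%, 8.47%, 3.02% and 2.76% with all probe sets and to 2.96%, 4.09%, 26.0%, 9.89%, 29.8%, 10.5% and 6.63% at 0.01. With the fit restricted to the compared groups, which gives no interaction, Jmjd1a-KO against WT had 2 (3.43% of all), Jmjd1b-KO against WT 5 (44.1%) and double-KO against Jmjd1a-KO 2 (4.83%). Array weights gave 6 for Jmjd1b-KO against WT (48.0%). With 1 value per gene, of 7 genes, double-KO against WT had 4 (48.9% of all genes). Against Jmjd1a-KO it had 4 (31.2%) and against Jmjd1b-KO 5 (52.9%), and the interaction had 3 (27.8%). Leaving out each array in turn changed both the member counts and the shares called over all measured probe sets. A lone array was then assumed to vary like the other groups. The replicate block gave 6, 1, 7, 8, 7, 5 and 7 and changed no member call beyond those of Trp53inp1 given above. With it 14.5%, 18.4%, 43.2%, 24.9%, 47.4%, 25.1% and 20.9% of all were called. All other counts of members lay within 1.5 times the main count. The cause of these differences was not tested, except that fewer features can pass with 1 value per gene and fewer calls at a stricter threshold. In Jmjd1b-KO against WT, where a count of 0 stands, 6 of 11 had an unadjusted p under 0.05 by limma with all arrays. Signal over background was not analysed here, so levels near the lower quartile of the arrays (6.34 to 6.35) may understate a change.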
